A study of Mus musculus with 68 samples.

Results

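ERY-II cells of mouse bone marrow, whose source name is BasoE and which are taken here as basophilic erythroblasts, were compared with ERY-I cells, whose source name is ProE and which are taken as proerythroblasts. The comparison used ERY-II replicates 1 to 4 and ERY-I replicates 4 to 7, which are 8 of the 68 libraries of the series and 8 of the 38 libraries of its stage series. The libraries were set side by side in the order of their numbers, so that ERY-II replicate 1 stood beside ERY-I replicate 4, and so on. The other 3 ERY-I libraries entered only an alternative. Erythroid cells had been enriched by flow cytometry, and the labels give no strain, genotype, sex, age, gate, batch or pairing, nor whether replicates came from different animals. The p-values therefore measure the spread between these libraries, which may be technical. Reads per gene were counted for 24059 gene symbols, of which 8825 (36.7%) had enough counts to be tested.

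The proerythroblast is the earliest erythroid cell that can be told by its shape, and it divides to give the basophilic erythroblast, whose blue-staining cytoplasm is rich in ribosomes. During these divisions cells begin to fill with hemoglobin, which needs globin chains, heme and iron in step, and they build the spectrin-based skeleton of the red cell membrane. They shrink at each division, and later stages condense and expel the nucleus and clear mitochondria and ribosomes.

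Total counts ran from 2533508 to 6401854 in ERY-II and from 4271156 to 6650278 in ERY-I, with 11088 to 12961 genes detected in ERY-II libraries and 12586 to 14053 in ERY-I libraries. Slc4a1, the band 3 anion exchanger of the erythroid membrane, was present in all 8 libraries. The 8 libraries fell into a pair of sets. In the first set ERY-II replicates 1 and 2 went with ERY-I replicates 4 and 5, and in the second set ERY-II replicates 3 and 4 went with ERY-I replicates 6 and 7. Deviations of log levels from the group mean correlated at 0.482 to 0.703 within these sets over the genes tested. Across them the correlations were -0.475 to -0.627, which is partly built in because deviations within a group sum to 0. The labels do not name these sets.

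RNA of other blood cells followed the sets. Macrophage markers summed to 296, 549, 6.09 and 7.11 CPM of library totals in ERY-II replicates 1 to 4, against 109, 265, 7.82 and 8.38 CPM in ERY-I replicates 4 to 7. B cell markers summed to 411, 260.0, 0.312 and 0.526 CPM of library totals in ERY-II replicates 1 to 4, against 57.1, 94.1, 1.05 and 2.04 CPM in ERY-I replicates 4 to 7. Neutrophil markers summed to 5.53, 2267, 29.4 and 2.37 CPM of library totals in ERY-II replicates 1 to 4, against 47.9, 1369, 21.4 and 0.818 CPM in ERY-I replicates 4 to 7. Macrophage and B cell sums were thus high in the first set of both stages and near 0 in the second, and the neutrophil sum was high in ERY-II replicate 2 and ERY-I replicate 5. In ERY-II replicates 3 and 4, 14 of 16 B cell markers had no count, against 15 and 12 of 16 in ERY-I replicates 6 and 7. None of the 4 neutrophil, 14 macrophage or 9 B cell markers tested passed the test in edgeR or in DESeq2, and 0, 0 and 2 of them had an unadjusted p under 0.05 in edgeR. With the position in the order as a block 4, 12 and 8 of them passed, all higher in ERY-II, and in the first set alone 0, 11 and 9 passed. No difference in summed markers passed an exact permutation test over the 8 libraries, two-sided (adjusted p from 0.114 for megakaryocyte markers, lower in ERY-II, to 0.857 over 8 sums). That test does not use the sets, within which macrophage sums differed far less than between them. With TMM scaling macrophage markers summed to 364, 715, 9.22 and 16.9 scaled CPM in ERY-II replicates 1 to 4, against 60.2, 163, 5.69 and 6.11 scaled CPM in ERY-I replicates 4 to 7. On that scale the sum was higher in ERY-II at each of the 4 places in the order.

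**Figure D1:**
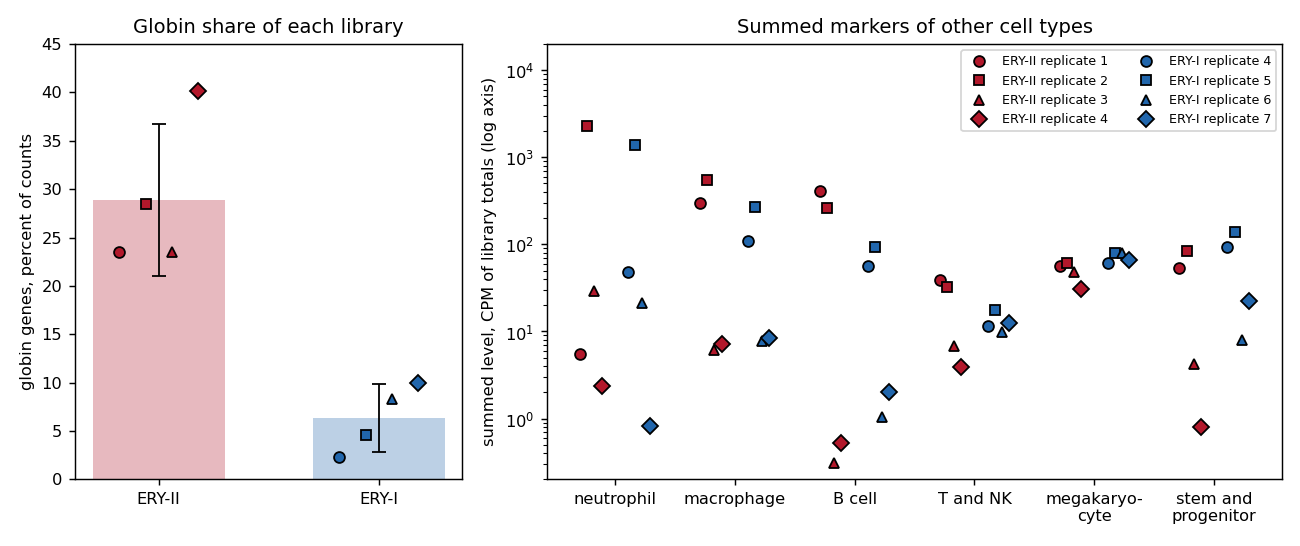
Left, the share of counts in globin genes in each library, with the mean (bar) and SD (error bar) of 4 libraries. Right, CPM of library totals summed over markers of other blood cells, on a log axis. Symbols of the same shape stand for libraries at the same place in the order. Globin shares of the 4 ERY-II libraries run from 23.5 to 40.1% and lie above those of the 4 ERY-I libraries, which run from 2.29 to 9.998%.

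Globin transcripts dominated the ERY-II libraries. Globin genes took 23.5, 28.4, 23.5 and 40.1% of counts in ERY-II replicates 1 to 4, against 2.29, 4.63, 8.33 and 9.998% in ERY-I replicates 4 to 7. The groups did not overlap, ERY-II replicate 4 stood above the other ERY-II libraries, and ERY-I replicate 4 had the smallest share. Means were 28.9 ± 7.85% in ERY-II and 6.31 ± 3.50% in ERY-I (SD, n = 4 each), a difference of 22.6 percentage points (exact permutation test, two-sided, p = 0.0286, the smallest that 4 against 4 libraries allow, and 0.114 adjusted over 8 summed measures). Without ERY-II replicate 4 the difference was 18.8 points. With globin genes included, 13 to 95 genes held 50% of the counts of an ERY-II library, against 373 to 642 genes in an ERY-I library. In bulk samples of this kind a change in the cells of a gate and a change in RNA per cell cannot be told apart.

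The direction of many genes depended on the scale. Levels below are read counts per library total in CPM after TMM scaling, written as scaled CPM, a scale that holds the bulk of genes level. Values of single libraries are given in the order of ERY-II replicates 1 to 4 and ERY-I replicates 4 to 7, and means of scaled CPM with the SD of 4 libraries. On it 1986 genes were called higher in ERY-II (22.5% of those tested) and 2100 lower (23.8%) by edgeR's quasi-likelihood test, at a Benjamini-Hochberg adjusted p of 0.05. Of these, 1276 were at least 2-fold higher and 1429 at least 2-fold lower. No overlap between the groups was seen for 3682 of the 4086 called genes. The calls used the same values, so this lack of overlap is not separate support for them. The share without overlap among all genes tested is not given here. The median log2 fold change of all genes tested was -0.07. Scaled to library totals instead, the median was -1.29, 371 genes were higher (4.2%) and 5641 lower (63.9%). Counts and medians of gene lists given below are to be read beside those of all genes on the same scale. With the position in the order as a block, 2455 genes were higher and 2645 lower. Of the 1986 genes called higher, 995 were lower by sign on library totals, while all 2100 genes called lower stayed lower. The median difference between the scales was 1.22 on the log2 scale, and it varied between genes. Genes called higher were also the more abundant ones, with a median of 77.6 CPM over the 8 libraries. The median was 24.04 CPM for those called lower and 15.08 CPM for those not called. The level takes in the ERY-II libraries, so the difference between genes called higher and lower is partly built in.

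**Figure D2:**
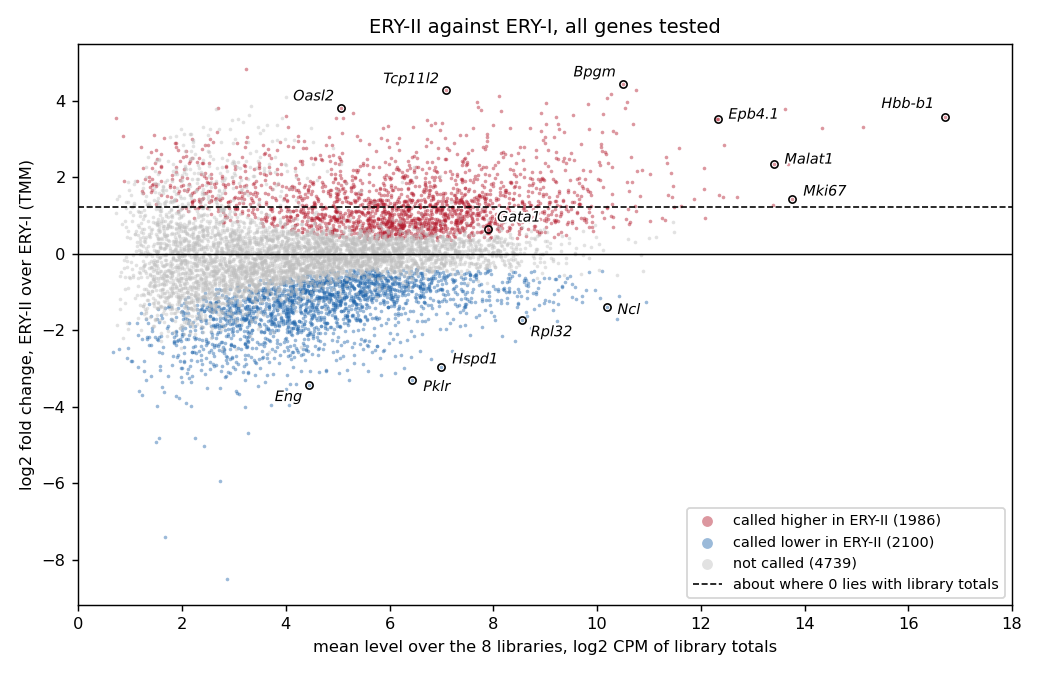
Each point is a gene, at its mean level over the 8 libraries (log2 CPM of library totals) and its log2 fold change, ERY-II over ERY-I, with TMM scaling. Red marks the 1986 genes called higher, blue the 2100 called lower. The dashed line, at 1.22, marks about where no change lies with library totals, so most red points below it, Gata1 among them, are lower in ERY-II on that scale.

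The largest rises included genes of red cell metabolism, nuclear transport and the interferon response. Bpgm, the enzyme that makes bisphosphoglycerate, which lowers the oxygen affinity of hemoglobin, had 3788, 4471, 1921 and 6374 scaled CPM in ERY-II, against 47.5, 218, 264 and 229.5 scaled CPM in ERY-I. Every ERY-II library was far above every ERY-I library, and ERY-I replicate 4 was the lowest of its group (log2 fold change 4.45 ± 0.58, SE; adjusted p = 0.00057, edgeR). Xpo7, a nuclear transport receptor linked to the opening of the nuclear envelope in maturing mouse erythroblasts, had 3836, 2980.4, 3874 and 10315 scaled CPM in ERY-II, against 58.5, 204, 414 and 409.6 scaled CPM in ERY-I. ERY-II replicate 4 was highest and ERY-I replicate 4 lowest, with no overlap (log2 fold change 4.27 ± 0.67, SE; adjusted p = 0.0011, edgeR). The other 10 of the 12 largest rises among genes above 20 CPM ran from 3.82 to 4.27 on the log2 scale. They included Bcl2l1, which encodes the survival protein BCL-XL (log2 fold change 3.94 ± 0.58, SE), and Gda, the guanine deaminase of purine breakdown (log2 fold change 3.92 ± 0.46, SE). They also included Fam46c, a poly(A) polymerase that adds tails to selected messages (log2 fold change 4.17 ± 0.57, SE), and the interferon-induced genes Rsad2 (log2 fold change 4.07 ± 0.52, SE) and Oasl2 (log2 fold change 3.82 ± 0.80, SE), the last at 4.74 without ERY-I replicate 5. Tcp11l2, Fam220a, Tmcc2, Fam214b and Sowaha made up the rest. All 12 stayed called and higher with size factors of DESeq2's kind and with library totals.

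The largest falls included enzymes of metabolism and ribosome factors. Pklr, the pyruvate kinase of liver and red cells, had 11.1, 7.65, 12.1 and 11.9 scaled CPM in ERY-II, against 122, 111, 85.5 and 107 scaled CPM in ERY-I. The 4 ERY-II libraries lay within a narrow range, all below ERY-I (log2 fold change -3.31 ± 0.20, SE; adjusted p = 0.0001, edgeR) with the smallest SE of the 12 largest falls. Cad, the enzyme that starts pyrimidine synthesis, had 12.1, 15.3, 4.96 and 5.64 scaled CPM in ERY-II, against 121, 83.9, 48.05 and 73.1 scaled CPM in ERY-I. Its levels were higher in the first set of libraries in both stages, and the groups did not overlap (log2 fold change -3.13 ± 0.40, SE; adjusted p = 0.00054, edgeR). Eng, the TGF-beta co-receptor endoglin, had 4.36, 5.26, 0 and 0.627 scaled CPM in ERY-II, against 37.7, 33.9, 14.01 and 17.9 scaled CPM in ERY-I. It showed the largest fall of the 12, with a level near 0 in ERY-II replicates 3 and 4 (log2 fold change -3.43 ± 0.80, SE; adjusted p = 0.0066, edgeR), and the change was -4.16 without ERY-II replicate 2. The other 9 fell by 3.31 to 3.03 on the log2 scale. Nhp2 belongs to the particles that modify ribosomal RNA, Heatr3 to the import of ribosomal proteins into the nucleus, and Hspe1, C1qbp and Ppa2 to the mitochondrial matrix. Mt1 is a metal-binding metallothionein, Gatm starts creatine synthesis, Aldh1a7 is an aldehyde dehydrogenase and Sh2d4a is an adaptor protein.

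**Figure D3:**
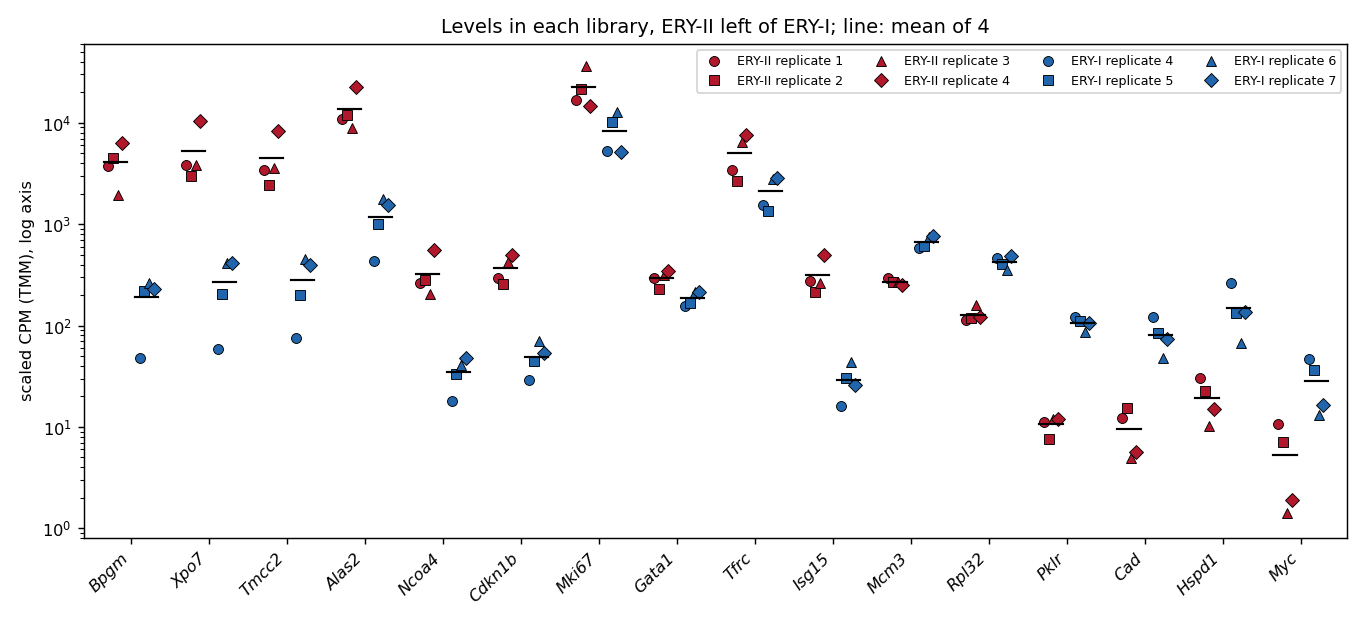
Levels of 16 genes in each library on a log axis, in CPM after TMM scaling, with ERY-II (red) left of ERY-I (blue) and a line at the mean of 4. Bpgm, Xpo7, Tmcc2 and Alas2 are higher in ERY-II without overlap, Pklr, Cad, Hspd1 and Rpl32 are lower without overlap, and Tfrc overlaps between the groups. On library totals Gata1 is lower in ERY-II, and Tfrc does not differ (log2 fold change -0.05, adjusted p = 0.86, edgeR).

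All 6 globin genes tested rose, with a median log2 fold change of 3.44, and 2.14 with library totals, on which 6 rose and 0 fell. They were the adult alpha and beta genes Hba-a1, Hba-a2, Hbb-b1 and Hbb-b2 and the alpha-like genes Hbq1a and Hbq1b. Hbb-b1, the major adult beta chain, took 17.7 ± 4.85% of all counts in ERY-II and 3.66 ± 2.01% in ERY-I (SD, n = 4 each). Its log2 fold change was 3.58 ± 0.78 (SE; adjusted p = 0.0047, edgeR). Hba-a1, an adult alpha chain, took 3.31 ± 0.564% of counts in ERY-II and 0.82 ± 0.416% in ERY-I. Its near-identical copy Hba-a2 took 2.15 ± 0.435% in ERY-II and 0.372 ± 0.207% in ERY-I. Reads that match both alpha copies, or both Hbb-b1 and Hbb-b2, could have been split or dropped in counting. The split within each of these pairs is therefore uncertain. Hbq1a, an alpha-like gene of low level, had 15.03, 16.3, 8.75 and 32.6 scaled CPM in ERY-II, against 0.364, 1.15, 1.97 and 1.49 scaled CPM in ERY-I, without overlap (log2 fold change 3.82 ± 0.57, SE; adjusted p = 0.00085, edgeR).

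Most heme synthesis genes rose as well. Of 16 tested members 13 rose and 1 fell, with a median log2 fold change of 1.11, or -0.09 with library totals, on which 4 rose and 3 fell. Alas2, the rate-limiting enzyme of heme synthesis in red cells, had 10938, 11884, 8929.9 and 22759 scaled CPM in ERY-II, against 433, 995, 1754 and 1559.6 scaled CPM in ERY-I. Every ERY-II library was above every ERY-I library (log2 fold change 3.52 ± 0.51, SE; adjusted p = 0.00081, edgeR). Fech, which puts iron into the porphyrin ring, averaged 5919 ± 2635 scaled CPM in ERY-II and 1023 ± 428 scaled CPM in ERY-I. Slc25a37 (mitoferrin), which brings iron into mitochondria, averaged 7488 ± 3338 scaled CPM in ERY-II and 1094 ± 582 scaled CPM in ERY-I. Fech and Slc25a37 rose by 2.53 and 2.77 on the log2 scale, without overlap. Tspo2, a translocator protein of erythroid cells, rose by 2.36 on the same scale. The fall was in Tmem14c, which carries a porphyrin across the inner mitochondrial membrane in mouse erythroblasts, at 249 ± 28.4 scaled CPM in ERY-II and 398 ± 77.6 scaled CPM in ERY-I (log2 fold change -0.68 ± 0.18, SE; adjusted p = 0.013, edgeR). With all 7 ERY-I libraries that fall no longer passed (log2 fold change -0.28, adjusted p = 0.51).

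Promoters of a few members are shown because they hold letters bound by the factors of this lineage, GATA1 (AGATAA or TGATAA) and KLF1 (CACACCC or CACGCCC), searched on both strands. Each window runs from 250 bases before to 50 bases after the gene's start in RefSeq (GRCm38.p6), and capitals mark the matches. Hba-a1, at chr11:32283422-32283721 on the plus strand, has TGATAA once and the second KLF1 form on each strand. Alas2, at chrX:150547167-150547466 on the plus strand, has TTATCT, the reverse complement of AGATAA, 86 bases before the start. Trim10, a membrane list member described below, at chr17:36869324-36869623 on the plus strand, has both kinds. Pklr, at chr3:89135892-89136191 on the plus strand in the first of its windows, also has both kinds, and its transcript fell. The second Pklr window, at chr3:89136373-89136672, has none.
Hba-a1: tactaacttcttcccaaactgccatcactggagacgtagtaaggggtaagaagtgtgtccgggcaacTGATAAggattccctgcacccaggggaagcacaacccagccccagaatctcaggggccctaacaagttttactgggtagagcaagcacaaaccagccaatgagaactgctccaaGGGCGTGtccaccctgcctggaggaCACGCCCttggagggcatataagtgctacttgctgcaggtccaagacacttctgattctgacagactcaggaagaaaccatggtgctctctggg
Alas2: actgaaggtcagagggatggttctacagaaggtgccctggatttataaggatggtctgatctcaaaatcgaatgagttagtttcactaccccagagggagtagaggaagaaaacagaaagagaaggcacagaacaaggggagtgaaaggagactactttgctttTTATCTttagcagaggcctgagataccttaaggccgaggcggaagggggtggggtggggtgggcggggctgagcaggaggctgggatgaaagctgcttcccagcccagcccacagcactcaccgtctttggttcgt
Trim10: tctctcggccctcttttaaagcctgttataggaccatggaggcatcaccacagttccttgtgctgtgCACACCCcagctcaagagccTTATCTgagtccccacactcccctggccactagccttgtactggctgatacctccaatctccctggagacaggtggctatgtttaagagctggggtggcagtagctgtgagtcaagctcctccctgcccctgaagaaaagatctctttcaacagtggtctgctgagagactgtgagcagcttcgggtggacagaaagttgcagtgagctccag
Pklr: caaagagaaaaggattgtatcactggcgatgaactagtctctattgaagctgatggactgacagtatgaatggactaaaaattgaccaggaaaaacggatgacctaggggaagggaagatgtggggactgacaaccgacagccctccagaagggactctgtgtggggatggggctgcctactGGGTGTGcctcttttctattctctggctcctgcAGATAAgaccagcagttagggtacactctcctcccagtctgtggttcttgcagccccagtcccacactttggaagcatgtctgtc
Of the 8825 genes tested 6746 (76.4%) had a promoter in the table. A GATA match stood in 9.35% of them, in 9.43% of those of genes called higher and in 10.4% of those called lower. A KLF1 match stood in 22.5%, 23% and 21.1% of the same sets. Erythroid membrane genes had a GATA match in 11 of 23 promoters (47.8%). Shares varied among the other lists in which most members rose. They were 50% for globin (2 of 4 promoters), 23.5% for interferon response, 23.1% for erythroid transcription factors and 15.4% for heme synthesis. Mitosis (9.68%) and autophagy (9.38%) lay near the 9.35% of all genes. Chromatin condensation and enucleation (6.9%) and late erythroid ubiquitin enzymes (3.03%) lay below it. Glycolysis genes, of which more fell than rose, had 33.3%. A match is a description and not a bound site.

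Iron genes moved unevenly. Of 24 tested 9 rose (37.5%) and 3 fell (12.5%), beside 22.5% and 23.8% of all genes. With the block 12 rose and 5 fell. The median log2 fold change was 0.35, or -0.90 with library totals, on which 3 rose and 16 fell. Ncoa4, which sends ferritin to breakdown, had 265, 281, 206 and 552 scaled CPM in ERY-II, against 17.95, 33.1, 40.4 and 47.8 scaled CPM in ERY-I. The groups stood far apart (log2 fold change 3.22 ± 0.38, SE; adjusted p = 0.00046, edgeR). Iscu and Isca1, of iron-sulfur cluster assembly, rose by 2.26 and 2.52 on the log2 scale. Aco1, a cytosolic aconitase that binds iron-responsive RNA when iron is low, had 7.27, 12.4, 4.49 and 5.02 scaled CPM in ERY-II, against 31.8, 31.5, 23.8 and 25.9 scaled CPM in ERY-I, with every ERY-II library below ERY-I (log2 fold change -1.97 ± 0.32, SE; adjusted p = 0.0012, edgeR). Tfrc, the transferrin receptor, had 3402, 2678, 6476 and 7577 scaled CPM in ERY-II, against 1547, 1359.7, 2771 and 2846 scaled CPM in ERY-I. ERY-II replicate 2 lay below ERY-I replicates 6 and 7, and the receptor passed with a log2 fold change of 1.24 ± 0.41 (SE; adjusted p = 0.031, edgeR), but was at -0.05 with library totals. With ERY-II replicate 3 or 4, or ERY-I replicate 4 or 5, left out its adjusted p was 0.085 to 0.091, so the call rests on each of those libraries. It was 0.07 with no filter on low counts.

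Most membrane and skeleton genes rose. Of 32 tested 27 rose and 2 fell, with a median log2 fold change of 1.59, or 0.34 with library totals, on which 12 rose and 4 fell. Epb4.1, protein 4.1 that ties spectrin and actin to the membrane, had 11051, 12278, 9132 and 22594 scaled CPM in ERY-II, against 515, 1143, 1747 and 1356 scaled CPM in ERY-I. The ERY-II libraries were all above ERY-I, and ERY-II replicate 4 was highest (log2 fold change 3.53 ± 0.47, SE; adjusted p = 0.00059, edgeR). Slc4a1 averaged 29038 ± 12150.0 scaled CPM in ERY-II and 5707 ± 2665 scaled CPM in ERY-I and rose by 2.35 on the log2 scale, without overlap. Tmcc2 (3.98), Trim10, a ring finger protein of erythroid maturation (2.70), and Mpp1, a scaffold of the glycophorin C complex (2.49), rose further than band 3. The falls were Cd44, an adhesion receptor whose loss is used to stage erythroblasts, and Piezo1, a channel that opens on stretch. Cd44 had 29.6, 49.3, 11.3 and 12.5 scaled CPM in ERY-II, against 86.7, 85.8, 36.2 and 59.1 scaled CPM in ERY-I. ERY-II replicate 2 lay above ERY-I replicate 6 (log2 fold change -1.40 ± 0.46, SE; adjusted p = 0.032, edgeR). Leaving out any 1 of 6 of the 8 libraries ended this call (adjusted p 0.053 to 0.099). Piezo1 averaged 59.1 ± 6.51 scaled CPM in ERY-II and 102 ± 14.6 scaled CPM in ERY-I and fell by 0.78 on the log2 scale without overlap (adjusted p = 0.003, edgeR).

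In the list of erythroid transcription factors 20 of 32 tested rose and 4 fell. The median log2 fold change was 0.91, but -0.32 with library totals, on which 9 rose and 12 fell. The list also holds the transport receptor Xpo7 and the ligase Trim58, which are not transcription factors and rose by 4.27 and 3.10. The rises were unequal. Gata1, the central factor of the lineage, had 292, 227, 318 and 342 scaled CPM in ERY-II, against 156, 168, 214 and 213 scaled CPM in ERY-I. The groups did not overlap, by a small margin (log2 fold change 0.65 ± 0.18, SE; adjusted p = 0.016, edgeR), and Gata1 was lower by 0.58 with library totals. Klf1, which drives adult beta globin, averaged 937 ± 223 scaled CPM in ERY-II and 524 ± 126 scaled CPM in ERY-I (log2 fold change 0.84 ± 0.24, SE; adjusted p = 0.018, edgeR), and was at -0.40 with library totals. Calls of both ended on single libraries: Klf1 had an adjusted p of 0.051 to 0.059 without ERY-II replicate 3 or 4 or ERY-I replicate 4 or 5, and Gata1 0.052 without ERY-I replicate 5. With no filter on low counts neither passed (0.064 for Klf1 and 0.081 for Gata1). Tal1, the partner of Gata1, rose by 1.28, with 0.06 on library totals. Larger rises were in Kdm7a, a histone demethylase (log2 fold change 2.48 ± 0.29, SE), Nfe2, a subunit of a globin-activating factor (log2 fold change 2.09 ± 0.38, SE), Foxo3, which drives antioxidant and maturation genes (log2 fold change 1.98 ± 0.33, SE), and E2f2, a cell cycle factor of late erythroblasts (log2 fold change 1.96 ± 0.40, SE). These 4 were higher on library totals as well, at 1.25, 0.85, 0.74 and 0.72. Bcl11a, which silences fetal globin in humans, had 28.6, 24.4, 13.9 and 10.7 scaled CPM in ERY-II, against 129.7, 96.3, 72.02 and 74.03 scaled CPM in ERY-I, with every ERY-II library below ERY-I (log2 fold change -2.26 ± 0.32, SE; adjusted p = 0.0007, edgeR). Ldb1, which joins enhancers to promoters in the Gata1 complex, averaged 46.3 ± 5.58 scaled CPM in ERY-II and 95.9 ± 16.2 scaled CPM in ERY-I and fell by 1.05 on the log2 scale.

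Progenitor genes did not move as a group. Of 28 listed 13 were tested, and 4 rose (30.8%) and 2 fell (15.4%), beside 22.5% and 23.8% of all genes. The median log2 fold change was 0.92, but -0.29 with library totals, on which 2 rose and 4 fell. With the block 6 rose and 4 fell. Myc, a driver of growth, had 10.7, 7.18, 1.42 and 1.88 scaled CPM in ERY-II, against 46.8, 36.2, 13.1 and 16.4 scaled CPM in ERY-I. Every ERY-II library was below ERY-I, with higher levels in the first set of both stages (log2 fold change -2.45 ± 0.64, SE; adjusted p = 0.012, edgeR), and a change of -3.08 without ERY-II replicate 1. Kit, the stem cell factor receptor, had 3.88, 11.96, 0.473 and 0 scaled CPM in ERY-II, against 38.7, 32.1, 1.53 and 13.7 scaled CPM in ERY-I. ERY-II replicates 1 and 2 lay above ERY-I replicate 6, and Kit did not pass (log2 fold change -2.43 ± 1.09, SE; adjusted p = 0.093, edgeR), but passed with the block (log2 fold change -2.49, adjusted p = 0.00043) and within each set. Myb, a progenitor factor, was at 108, 78.5, 2.84 and 10.03 scaled CPM in ERY-II, against 106, 86.4, 16.1 and 27.7 scaled CPM in ERY-I. Myb did not pass (log2 fold change -0.26 ± 0.92, SE; adjusted p = 0.84, edgeR), although in the second set alone it was lower by 1.98 (adjusted p = 0.0094). Runx3, a runt family factor, fell by 2.70, and by 3.82 without ERY-II replicate 2. Pim1, a kinase induced by erythropoietin, rose by 2.77 on the log2 scale. Lyl1, a relative of Tal1, rose by 1.91.

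Erythropoietin signalling genes moved in both directions. Of 17 tested 6 rose (35.3%) and 3 fell (17.6%), beside 22.5% and 23.8% of all genes. The median log2 fold change was 0.60, or -0.51 with library totals, on which 2 rose and 5 fell. Epor, the erythropoietin receptor, had 163, 169, 243 and 179 scaled CPM in ERY-II, against 67.7, 87.97, 117 and 104 scaled CPM in ERY-I, without overlap (log2 fold change 1.003 ± 0.21, SE; adjusted p = 0.0037, edgeR), but was at -0.19 with library totals. Jak2, the kinase bound to it, rose by 0.76, and was at -0.46 on library totals. Stat5a and Stat5b, the factors that Jak2 activates, fell by 2.52 and 1.60 on the log2 scale. Stat5a was at 4.36, 7.18, 0.236 and 1.88 scaled CPM in ERY-II, against 28.6, 25.6, 10.4 and 10.3 scaled CPM in ERY-I, so its level in ERY-II was near 0 in replicate 3 (adjusted p = 0.018, edgeR). Its call ended when ERY-I replicate 4 (adjusted p = 0.068) or 5 (0.054) was left out and in limma-voom (0.06), and its change was -3.27 without ERY-II replicate 2. Pim1, a target of the pathway, had 197, 206, 380.4 and 582 scaled CPM in ERY-II, against 19.2, 31.5, 84.2 and 65.1 scaled CPM in ERY-I (adjusted p = 0.0022, edgeR). Cish, a feedback inhibitor, had 19.9, 12.9, 83.2 and 103 scaled CPM in ERY-II, against 2.18, 1.72, 18.5 and 15.9 scaled CPM in ERY-I. Cish overlapped between the groups (log2 fold change 2.51 ± 0.85, SE; adjusted p = 0.036, edgeR), and within each set the ERY-II libraries were above ERY-I. Leaving out any 1 of 5 of the 8 libraries ended the call (adjusted p 0.058 to 0.1).

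**Figure D4:**
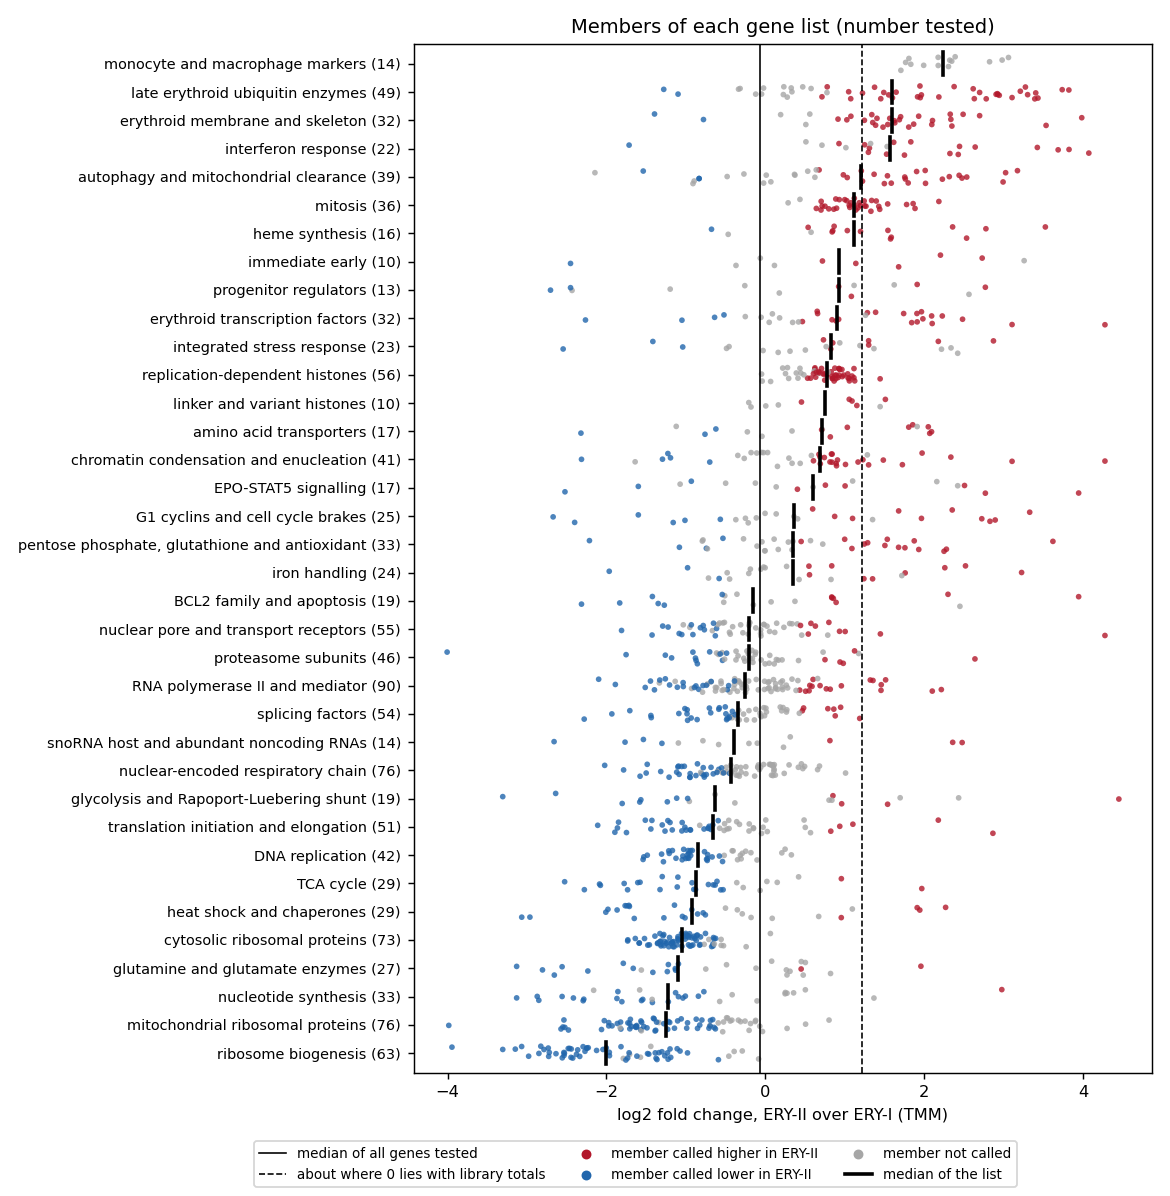
Each point is a member of a gene list with its log2 fold change, ERY-II over ERY-I, under TMM scaling; lists with at least 10 tested members are ordered by their median. The solid line is the median of all genes tested, -0.07, and the dashed line, at 1.22, marks about where no change lies with library totals. Ubiquitin enzymes (median 1.60) and membrane genes (1.59) stay above 0 on both scales, while the medians of mitosis and histone genes lie between the lines and are below 0 on library totals.

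Most mitosis genes rose with TMM scaling, and most DNA replication genes fell. Of 36 mitosis genes 34 rose and 0 fell, with a median log2 fold change of 1.12. With library totals the median was -0.09, and 2 rose and 2 fell, beside 4.2% and 63.9% of all genes. Of 42 DNA replication genes 0 rose and 29 fell, with medians of -0.84 and -2.04, and with all 7 ERY-I libraries 17 fell. No mitosis gene was lower and no replication gene higher at an unadjusted p under 0.05 in edgeR or was called so by DESeq2. Ube2c, a conjugating enzyme of the anaphase-promoting complex, had 1199.8, 1202, 2298 and 2433 scaled CPM in ERY-II, against 212, 308, 523 and 528 scaled CPM in ERY-I. It was higher in every ERY-II library (log2 fold change 2.18 ± 0.38, SE; adjusted p = 0.0016, edgeR), and higher on library totals at 0.93. Cenpf, a kinetochore protein, Nusap1, of the spindle, and Ect2, which starts cytokinesis, rose by 1.88, 1.86 and 1.78. Mcm3, of the replicative helicase, had 297, 268, 271 and 251.4 scaled CPM in ERY-II, against 582, 604, 741 and 763 scaled CPM in ERY-I. The ERY-II libraries agreed closely and all lay below ERY-I (log2 fold change -1.31 ± 0.16, SE; adjusted p = 0.00051, edgeR). Gins2, a helicase partner, Dut, which keeps uracil out of DNA, and Rfc3, of the clamp loader, fell by 1.54, 1.53 and 1.49. Pcna, the sliding clamp, averaged 293 ± 4.43 scaled CPM in ERY-II and 489.9 ± 79.1 scaled CPM in ERY-I (log2 fold change -0.74 ± 0.16, SE; adjusted p = 0.0048, edgeR), and with all 7 ERY-I libraries it did not pass (-0.27, adjusted p = 0.6). Mki67, a marker of cycling cells, was at 16966, 21364, 36662 and 14797 scaled CPM in ERY-II, against 5278, 10299.8, 12711 and 5102 scaled CPM in ERY-I. It passed with log2 fold change 1.43 ± 0.45, SE (adjusted p = 0.026, edgeR), but not on library totals (0.25, adjusted p = 0.59) or without ERY-II replicate 3 or ERY-I replicate 4, 5 or 7 (0.052 to 0.087). It also missed with no filter on low counts (0.11) and in the second set alone (0.074).

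Genes of the G1 phase and its brakes moved in both directions. In the list of 25 tested 10 rose (40%) and 6 fell (24%), beside 22.5% and 23.8% of all genes. The share that fell is thus near that of all genes. The median log2 fold change was 0.36, or -0.79 with library totals, on which 6 rose and 12 fell. Cdkn1b, an inhibitor of cyclin-dependent kinases, had 296, 255, 421 and 496 scaled CPM in ERY-II, against 29.2, 44.4, 70.6 and 53.2 scaled CPM in ERY-I. It stood far above ERY-I in every ERY-II library (log2 fold change 2.89 ± 0.31, SE; adjusted p = 0.00042, edgeR). Cdkn2d, an inhibitor of the G1 kinases, had 202, 169.8, 373 and 217 scaled CPM in ERY-II, against 13.9, 32.6, 49.9 and 39.3 scaled CPM in ERY-I (log2 fold change 2.83 ± 0.39, SE). Its relative Cdkn2c rose by 1.10 and was at -0.09 with library totals. Ccng2, a cyclin of arrested cells, and Gadd45a, a stress-induced growth arrest gene, rose by 3.33 and 2.72. Cdk4, the partner of D-type cyclins, had 23.3, 12.4, 6.38 and 9.40 scaled CPM in ERY-II, against 109, 90.99, 51.7 and 69.4 scaled CPM in ERY-I, without overlap (log2 fold change -2.67 ± 0.39, SE; adjusted p = 0.00078, edgeR). Its relative Cdk6 fell by 2.40 with overlapping groups (adjusted p = 0.043, edgeR), a call that ended when ERY-II replicate 3 or 4 was left out, or 1 of ERY-I replicates 4, 5 and 7 (0.063 to 0.15) and in limma-voom (0.18). Its change was -3.12 without ERY-II replicate 1. Ccnd3, the D-type cyclin of erythroblasts, fell by 0.57 with overlapping groups (adjusted p = 0.043, edgeR), and it missed when any 1 of 6 of the 8 libraries was left out (0.067 to 0.097), with all 7 ERY-I libraries (0.33) and in the first set alone (0.54). Ccnd2 did not pass (log2 fold change 0.14 ± 0.95, SE; adjusted p = 0.92, edgeR), with opposite signs in the sets, 0.87 in the first and -4.28 in the second. E2f4, a transcription factor of the same cycle, rose by 0.66, was at -0.55 with library totals and missed with no filter on low counts (adjusted p = 0.096).

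Most clustered histone genes rose with TMM scaling. Of 67 clustered genes 56 were tested, 41 rose and 0 fell, with a median log2 fold change of 0.77; with library totals the median was -0.48, 0 rose and 22 fell. Hist1h1c, a linker histone, had 5089.9, 5602, 7531 and 6668 scaled CPM in ERY-II, against 1663, 2246, 2223 and 3017 scaled CPM in ERY-I. The groups did not overlap (log2 fold change 1.44 ± 0.27, SE; adjusted p = 0.0023, edgeR), and the change did not pass on library totals (0.22, adjusted p = 0.36). Hist1h2ak rose by 1.11, and was at -0.10 on library totals. Hist1h1a did not pass (log2 fold change -0.04 ± 0.25, SE; adjusted p = 0.91, edgeR). The near-identical sequences of these genes make each member's own count uncertain. With no filter on low counts 27 members rose and with single libraries left out 28 to 44, and none was lower at an unadjusted p under 0.05 in edgeR or called lower in DESeq2. H3f3a, which encodes a variant made outside S phase, rose by 1.51, but did not pass on library totals (0.26, adjusted p = 0.22).

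Most ribosome genes fell. Of 73 cytosolic ribosomal protein genes 65 fell and 0 rose, with a median log2 fold change of -1.05, or -2.29 with library totals, on which 0 rose and 73 fell, and with all 7 ERY-I libraries 23 fell. Of 76 mitochondrial ones 53 fell and 0 rose (median -1.25), and of 63 ribosome biogenesis genes 55 fell and 0 rose (median -2.002). Rpl32, of the large subunit, had 114, 119.6, 158 and 122 scaled CPM in ERY-II, against 459.8, 409, 353 and 486 scaled CPM in ERY-I. Every ERY-II library lay below every ERY-I library (log2 fold change -1.73 ± 0.17, SE; adjusted p = 0.00039, edgeR). Rpl12, also of the large subunit, fell by 1.64, and Rps18, of the small subunit, by 1.73, although Rps18 missed with all 7 ERY-I libraries (adjusted p = 0.052). Ncl, the nucleolar protein nucleolin, had 594, 539.6, 435 and 352 scaled CPM in ERY-II, against 1662, 1378, 944 and 1035 scaled CPM in ERY-I (log2 fold change -1.39 ± 0.25, SE; adjusted p = 0.0019, edgeR). Nhp2 had 5.33, 7.18, 4.02 and 1.25 scaled CPM in ERY-II, against 65.6, 36.8, 31.2 and 45.7 scaled CPM in ERY-I (log2 fold change -3.31 ± 0.39, SE; adjusted p = 0.00046, edgeR). Pno1, which joins the assembly of the small subunit, averaged 1.80 ± 1.59 scaled CPM in ERY-II and 16.00 ± 6.79 scaled CPM in ERY-I, and fell by 3.15. Mrps26 and Mrpl52, of the mitochondrial ribosome, fell by 2.57 and 2.55. At an unadjusted p under 0.05 in edgeR, 1 mitochondrial ribosomal protein gene and none of the other members of these lists was higher. DESeq2 called 1 mitochondrial ribosomal protein gene and no other member higher.

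The promoter of Pno1, at chr11:17211540-17211839 on the minus strand, is shown because it holds CACGTG, the letters bound by MYC. The match begins at base 288 of the window, in the 50 bases after the start, and capitals mark it.
Pno1: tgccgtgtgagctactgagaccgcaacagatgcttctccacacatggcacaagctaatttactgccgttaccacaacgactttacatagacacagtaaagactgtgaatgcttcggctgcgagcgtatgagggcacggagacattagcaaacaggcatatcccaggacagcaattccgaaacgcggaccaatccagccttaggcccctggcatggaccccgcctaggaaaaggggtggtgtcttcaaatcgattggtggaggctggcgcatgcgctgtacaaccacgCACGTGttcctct
CACGTG reads the same on both strands. It stood in 11 of 55 ribosome biogenesis promoters (20%), in 10.9% of promoters of all genes tested, in 9.77% of those of genes called higher and in 12.7% of those called lower. Its share was as large or larger in promoters of heme synthesis (23.1%), amino acid transporter (21.4%), nuclear pore (20%) and translation genes (20%).

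Translation factors mostly followed. Of 51 tested 5 rose and 26 fell, with a median log2 fold change of -0.66, or -1.90 with library totals, on which 2 rose and 44 fell. Eif2b1, a subunit of the exchange factor that reloads eIF2, averaged 5.86 ± 2.69 scaled CPM in ERY-II and 25.2 ± 6.10 scaled CPM in ERY-I (log2 fold change -2.11 ± 0.33, SE; adjusted p = 0.001, edgeR). Against the trend, Eif2ak1, the kinase that halts globin translation when heme is short, had 1430.5, 1356, 2128 and 2897 scaled CPM in ERY-II, against 250.3, 373, 608 and 498 scaled CPM in ERY-I. The groups did not overlap (log2 fold change 2.18 ± 0.35, SE; adjusted p = 0.0011, edgeR). Eif5, which helps set the start codon, had 1423, 1309, 1308 and 4408 scaled CPM in ERY-II, against 209, 253, 356 and 343 scaled CPM in ERY-I, with ERY-II replicate 4 far above the other ERY-II libraries. It rose by 2.86 on the log2 scale, and by 2.21 without that library.

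Many genes of nucleotide synthesis and glutamine use fell. Of 33 nucleotide synthesis genes 20 fell and 1 rose, with a median log2 fold change of -1.22, or -2.44 with library totals, on which 1 rose and 28 fell. Of 27 glutamine and glutamate enzymes 13 fell and 2 rose (medians -1.09 and -2.36). Mthfd1, a folate enzyme that supplies carbon for purines, had 41.7, 31.6, 21.3 and 18.8 scaled CPM in ERY-II, against 292, 201, 139 and 184 scaled CPM in ERY-I. ERY-II libraries were all lower, without overlap (log2 fold change -2.85 ± 0.31, SE; adjusted p = 0.00042, edgeR). Ppat, the committed step of purine synthesis that takes nitrogen from glutamine, averaged 9.95 ± 2.69 scaled CPM in ERY-II and 59.96 ± 18.3 scaled CPM in ERY-I (log2 fold change -2.56 ± 0.27, SE), and Atic, which ends the same pathway, fell by 2.87. Oat, which links ornithine and glutamate, fell by 2.66. The nucleotide gene that rose was Nt5c3, a pyrimidine nucleotidase that clears RNA breakdown products in red cells, at 815, 672, 1142 and 2504 scaled CPM in ERY-II, against 90.4, 131, 213 and 219 scaled CPM in ERY-I (log2 fold change 2.98 ± 0.47, SE; adjusted p = 0.0011, edgeR). Glul, glutamine synthetase, had 364, 295, 348 and 601 scaled CPM in ERY-II, against 86.1, 103, 111 and 114 scaled CPM in ERY-I. The ERY-II libraries were all higher (log2 fold change 1.96 ± 0.23, SE; adjusted p = 0.00047, edgeR), with a log2 fold change of 0.67 on library totals. Glud1, which releases ammonium from glutamate, did not pass (log2 fold change -0.12 ± 0.68, SE; adjusted p = 0.9, edgeR), and in the second set alone it was lower by 1.69 (adjusted p = 0.023).

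Several amino acid carriers rose. Of 17 transporters tested 8 rose (47.1%) and 3 fell (17.6%), beside 22.5% and 23.8% of all genes. The median log2 fold change was 0.72, or -0.55 with library totals, on which 4 rose and 7 fell. Slc7a5 and Slc3a2, which together form a carrier of large neutral amino acids, averaged 784 ± 462 scaled CPM in ERY-II and 184 ± 78.4 scaled CPM in ERY-I for the first and 503 ± 259.7 scaled CPM in ERY-II and 121 ± 46.4 scaled CPM in ERY-I for the second. They rose by 2.09 and 2.05 on the log2 scale without overlap. Slc1a5, a glutamine carrier, had 317, 351, 544 and 448 scaled CPM in ERY-II, against 54.6, 79.9, 158 and 103 scaled CPM in ERY-I (log2 fold change 2.07 ± 0.32, SE; adjusted p = 0.001, edgeR). The groups did not overlap.

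Mitochondrial energy genes fell in part. Of 76 nuclear-encoded respiratory chain genes 30 fell and 0 rose, with a median log2 fold change of -0.43, or -1.68 with library totals, on which 0 rose and 73 fell, and 11 fell with all 7 ERY-I libraries. None was higher at an unadjusted p under 0.05 in edgeR or called higher by DESeq2, and with the block 3 rose and 41 fell. Of 29 TCA cycle genes 21 fell and 2 rose (medians -0.88 and -2.08). Atp5g1, a rotor subunit of ATP synthase, had 11.1, 7.18, 11.1 and 11.3 scaled CPM in ERY-II, against 43.1, 33.8, 39.3 and 49.9 scaled CPM in ERY-I (log2 fold change -2.02 ± 0.21, SE; adjusted p = 0.0004, edgeR). ERY-II replicates 1, 3 and 4 were almost equal and replicate 2 was lower. Ndufb5, of the first complex, fell by 1.78. Dlat, of pyruvate dehydrogenase, averaged 6.93 ± 1.44 scaled CPM in ERY-II and 28.8 ± 10.3 scaled CPM in ERY-I and fell by 2.08. Pcx, which makes oxaloacetate from pyruvate, went the other way at 205 ± 71.2 scaled CPM in ERY-II and 52.4 ± 18.8 scaled CPM in ERY-I (log2 fold change 1.97 ± 0.31, SE; adjusted p = 0.0011, edgeR).

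Glycolysis genes moved in both directions. Of 19 tested 4 rose (21.1%) and 8 fell (42.1%), beside 22.5% and 23.8% of all genes. The share that rose is thus near that of all genes. The median log2 fold change was -0.63, or -1.76 with library totals, on which 1 rose and 11 fell. Bpgm and Pklr, the ends of the range, are described above. Ldha, of lactate dehydrogenase, had 23.3, 26.8, 5.44 and 0.627 scaled CPM in ERY-II, against 128, 70.9, 50.5 and 96.7 scaled CPM in ERY-I. ERY-II replicates 3 and 4 were the lowest (log2 fold change -2.64 ± 0.65, SE; adjusted p = 0.0085, edgeR). Tpi1, a triose isomerase, fell by 1.80. Slc16a1, which exports lactate, averaged 1359 ± 371 scaled CPM in ERY-II and 468 ± 73.8 scaled CPM in ERY-I and rose by 1.54, and did not pass on library totals (0.27, adjusted p = 0.16).

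Some antioxidant genes rose. Of 33 tested 14 rose (42.4%) and 4 fell (12.1%), beside 22.5% and 23.8% of all genes. The median log2 fold change was 0.35, or -0.87 with library totals, on which 5 rose and 19 fell. Cat, catalase, had 1620.0, 1497, 1172 and 4000.2 scaled CPM in ERY-II, against 86.7, 149, 222 and 217 scaled CPM in ERY-I. Each ERY-II library was above each ERY-I library (log2 fold change 3.62 ± 0.47, SE; adjusted p = 0.00057, edgeR). Gpx1, a glutathione peroxidase, averaged 9268 ± 4188 scaled CPM in ERY-II and 1951 ± 714 scaled CPM in ERY-I, and Mafg, a partner of Nfe2, 150.3 ± 53.4 scaled CPM in ERY-II and 30.98 ± 16.4 scaled CPM in ERY-I. They rose by 2.25 and 2.28. Gsto1, a glutathione transferase, fell by 2.21.

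Many clearance genes rose with TMM scaling. Of 39 members of the autophagy list 23 rose and 3 fell, with a median log2 fold change of 1.21. With library totals the median was -0.15, and 12 rose and 14 fell. All genes had a median of -1.29 on library totals, with 4.2% higher and 63.9% lower. Bnip3l, the receptor that marks mitochondria for removal in reticulocytes, had 1382, 1607, 881 and 2818 scaled CPM in ERY-II, against 104, 165, 233 and 239.5 scaled CPM in ERY-I. The groups did not overlap (log2 fold change 3.17 ± 0.41, SE; adjusted p = 0.00053, edgeR). Gabarapl2, of the autophagosome membrane, and Atg4a, which processes such proteins, rose by 3.02 and 2.53. Pink1, a kinase of damaged mitochondria, had 160.0, 166, 149.7 and 653 scaled CPM in ERY-II, against 21.6, 29.04, 37.4 and 53.3 scaled CPM in ERY-I. ERY-II replicate 4 was far above the other ERY-II libraries, and without it the log2 fold change was 2.15, against 2.99 with it. Vdac1, the main pore of the outer mitochondrial membrane, fell by 1.54.

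Ubiquitin enzymes of late erythroblasts mostly rose. Of 49 tested 34 rose and 2 fell, with a median log2 fold change of 1.60, and of 0.34 with library totals, on which 24 rose and 11 fell. Ube2o, which tags ribosomal proteins for removal in mouse reticulocytes, had 3304, 2968, 2542 and 8326 scaled CPM in ERY-II, against 106, 247, 448 and 414 scaled CPM in ERY-I (log2 fold change 3.82 ± 0.56, SE; adjusted p = 0.00083, edgeR). Ube2h, Ube2b and Mkrn1, further conjugating enzymes and a ligase, rose by 3.73, 3.43 and 3.40. Trim58, a ligase that acts on dynein in mouse erythroblasts, averaged 416 ± 164 scaled CPM in ERY-II and 48.2 ± 22.6 scaled CPM in ERY-I. Of 46 proteasome subunits and assembly factors, 5 rose and 12 fell (medians -0.21, and -1.46 with library totals, on which 1 rose and 38 fell). The 26.1% that fell is near the 23.8% of all genes. Psmb3, of the core, fell by 1.26, whereas Psme3, an activator cap, had 1368, 1248, 1304 and 2834 scaled CPM in ERY-II, against 173, 226, 344 and 342 scaled CPM in ERY-I (log2 fold change 2.64 ± 0.35, SE; adjusted p = 0.00061, edgeR).

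Most chaperones tested fell. Of 29 tested 4 rose and 18 fell, with a median log2 fold change of -0.93, or -2.20 with library totals, on which 3 rose and 24 fell. Hspd1, the mitochondrial chaperonin, had 30.1, 22.5, 10.2 and 15.05 scaled CPM in ERY-II, against 261, 133, 66.9 and 136 scaled CPM in ERY-I. It was lower in every ERY-II library (log2 fold change -2.96 ± 0.45, SE; adjusted p = 0.00097, edgeR). Its lid Hspe1 fell by 3.07, and Hsph1, a cytosolic partner of Hsp70, by 2.01. Dnajb4, a co-chaperone, rose by 2.27. In the integrated stress response 7 of 23 rose (30.4%) and 3 fell (13%), beside 22.5% and 23.8% of all genes. The median was 0.82, or -0.46 with library totals, on which 2 rose and 7 fell. With the block 13 rose and 3 fell, beside 2455 and 2645 of all 8825 genes. Ppp1r15a, which restarts translation after stress, had 2267, 2066, 2814 and 3014 scaled CPM in ERY-II, against 154, 328, 519 and 389 scaled CPM in ERY-I (log2 fold change 2.87 ± 0.36, SE; adjusted p = 0.00051, edgeR). Ddit3, a stress factor, rose by 1.299 but not on library totals (0.03), and Wars, a tRNA synthetase, fell by 1.04.

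Most interferon-response genes rose. Of 22 tested 16 rose and 1 fell, with a median log2 fold change of 1.57, and of 0.43 with library totals, on which 8 rose and 1 fell. Isg15, an interferon-induced ubiquitin-like protein, had 273, 215, 261 and 502 scaled CPM in ERY-II, against 16.1, 30.3, 43.8 and 26.1 scaled CPM in ERY-I. Every ERY-II library was above every ERY-I library (log2 fold change 3.42 ± 0.36, SE; adjusted p = 0.00042, edgeR). Rsad2, the antiviral protein viperin, had 2648, 2414, 2357 and 6177 scaled CPM in ERY-II, against 75.9, 173, 313 and 247 scaled CPM in ERY-I. Ifit1, which binds foreign RNA, had 143, 138, 35.2 and 54.5 scaled CPM in ERY-II, against 5.22, 14.2, 4.60 and 4.77 scaled CPM in ERY-I, with higher values in the first set of ERY-II (log2 fold change 3.68 ± 0.55, SE; adjusted p = 0.00088, edgeR). Ifit2, a relative, went the other way at 5.79 ± 3.31 scaled CPM in ERY-II and 18.8 ± 2.75 scaled CPM in ERY-I (log2 fold change -1.72 ± 0.36, SE; adjusted p = 0.0043, edgeR). Macrophage markers were higher in the first set, as given above. With TMM scaling 18 members rose and 1 fell in the first set alone, and 16 rose and 1 fell in the second set alone. Each set alone was an alternative chosen after seeing the data. In the second set macrophage markers summed to 9.22 and 16.9 scaled CPM in ERY-II, against 5.69 and 6.11 scaled CPM in ERY-I. The part of macrophage RNA in the interferon-response levels was not tested. Of 10 immediate early genes 5 rose and 1 fell, with medians of 0.93 and -0.29. Jund rose by 2.20. Klf6 rose by 2.73, but with all 7 ERY-I libraries did not pass (0.50, adjusted p = 0.61).

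Apoptosis genes changed in both directions. Of 19 tested 6 rose and 6 fell (31.6% each), beside 22.5% and 23.8% of all genes. Medians were -0.15 and, with library totals, -1.33, on which 1 rose and 12 fell. Bcl2l1 had 1067, 968, 1028 and 3017 scaled CPM in ERY-II, against 31.1, 74.9, 142 and 148 scaled CPM in ERY-I. ERY-II replicate 4 was far above its group's other libraries, and without it the log2 fold change was 3.36. Bcl2l11, which encodes the killer protein BIM, fell by 1.42.

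Of 41 chromatin condensation and enucleation genes 22 rose and 5 fell (median 0.69, but -0.52 with library totals, on which 5 rose and 17 fell). With no filter on low counts 13 of them rose. Tmod1, which caps actin filaments, rose by 2.33. Of 55 nuclear pore and transport genes 9 rose and 14 fell (median -0.21, or -1.46 with library totals), and the 25.5% that fell is near the 23.8% of all genes. Beside Xpo7, the importin Kpna1 rose by 1.45, while Ipo8, an importin, and Nup54, of the central channel, fell by 1.81 and 1.43. Of 54 splicing factors 7 rose and 24 fell, and Prpf19 and Snrpa fell by 2.28 and 1.93. Of 90 RNA polymerase II and mediator genes 17 rose (18.9%) and 20 fell (22.2%), shares near those of all genes (22.5% and 23.8%). Gtf2e2, of an initiation factor, averaged 147 ± 28.4 scaled CPM in ERY-II and 31.8 ± 9.62 scaled CPM in ERY-I (log2 fold change 2.21 ± 0.24, SE; adjusted p = 0.00043, edgeR). Malat1, an abundant nuclear RNA, had 17469, 18008, 26678 and 32582 scaled CPM in ERY-II, against 2331, 3839, 6706 and 5614 scaled CPM in ERY-I (log2 fold change 2.36 ± 0.42, SE; adjusted p = 0.0019, edgeR). Neat1, the RNA of paraspeckles, rose by 2.48, but with all 7 ERY-I libraries did not pass (0.55, adjusted p = 0.55). Snhg12, a snoRNA host, fell by 2.66. Xist, the RNA of the inactive X, was found in all 8 libraries at 956 ± 144 scaled CPM in ERY-II and 545 ± 137 scaled CPM in ERY-I, and its rise of 0.81 (adjusted p = 0.013, edgeR) became -0.40 on library totals. With no filter on low counts or with all 7 ERY-I libraries it did not pass (adjusted p = 0.062 and 0.4).

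Levels in the neighbouring gates are given in 1 joint scaling with 2 CFU-E libraries (replicates 4 and 5, the progenitor before ERY-I) and 4 libraries of the later gate ERY-III. These are descriptions with no test, and the 12 largest rises and falls had been chosen on the same ERY-II and ERY-I libraries, which favours an extreme mean in ERY-II. The gates were not compared on library totals, a change of scale that gave a median shift of -1.22 on the log2 scale for ERY-II against ERY-I. The order of the gates may therefore depend on the scale. With the joint scaling all 12 of the largest rises had their lowest mean in CFU-E and their highest in ERY-II. Xpo7 averaged 7.38 scaled CPM in CFU-E, 282 in ERY-I, 5251 in ERY-II and 2619 in ERY-III. Bpgm averaged 12.5 scaled CPM in CFU-E, 197 in ERY-I, 4127 in ERY-II and 1780.1 in ERY-III. Alas2 averaged 5.27 scaled CPM in CFU-E, 1231 in ERY-I, 13595 in ERY-II and 8443 in ERY-III. Without ERY-II replicate 4, 12 of the 12 still had a higher mean in ERY-II than in ERY-III. Hba-a1 averaged 35.5 scaled CPM in CFU-E, 5876 in ERY-I, 54973 in ERY-II and 40593 in ERY-III, and without ERY-II replicate 4 its ERY-II mean was 40045, below the ERY-III mean. Gata1, in contrast, averaged 132 scaled CPM in CFU-E, 195 in ERY-I, 292 in ERY-II and 309 in ERY-III, with a higher mean in ERY-III than in ERY-II. Of the 12 largest falls 11 had their highest mean in CFU-E, and Aldh1a7 had it in ERY-I. Cad averaged 198 scaled CPM in CFU-E, 84.8 in ERY-I, 9.40 in ERY-II and 6.89 in ERY-III, a decline at each gate. Mcm3 averaged 498 scaled CPM in CFU-E, 699 in ERY-I, 269 in ERY-II and 461 in ERY-III, so its mean was lowest in ERY-II. Hist1h1c averaged 1261 scaled CPM in CFU-E, 2376 in ERY-I, 6161 in ERY-II and 10796 in ERY-III, and was highest in ERY-III.

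**Figure D5:**
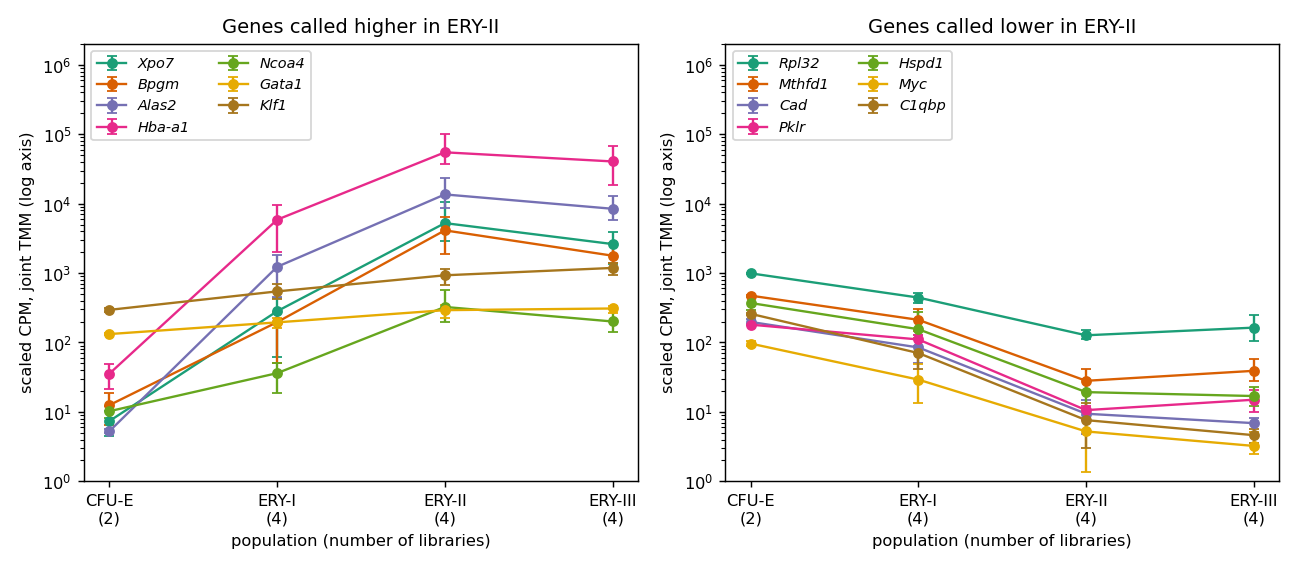
Mean levels in CFU-E (2 libraries), ERY-I, ERY-II and ERY-III (4 each), in CPM after 1 joint TMM scaling, on a log axis; bars run from the lowest to the highest library. Left, genes called higher in ERY-II than in ERY-I: Xpo7, Bpgm, Alas2 and Ncoa4 have their highest mean in ERY-II, as does Hba-a1 with ERY-II replicate 4 included. Right, genes called lower: means are highest in CFU-E and lower at each gate up to ERY-II.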

How the data were processed

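Libraries had been made with the SMARTer Pico Input kit for stranded total RNA, per the labels' protocols. Reads were aligned to mm10 with STAR 2.5.2b and counted with HTSeq, per the submitters' processing notes, and the annotation and strand setting are not given in the sources here. The authors deposited whole-number counts per gene symbol, used here as deposited. The members and gene lists were chosen with earlier results of these data known.

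Genes were kept by filterByExpr of edgeR 4.0.16 (minimum count 10, minimum total 15), counts were scaled by TMM, and ERY-II was tested against ERY-I with the quasi-likelihood test in R 4.3.3, with no block, over all 8825 genes kept. Each SE was obtained by dividing the fold change by the root of its F statistic. Calls used a Benjamini-Hochberg adjusted p of 0.05. The steps were tested on data simulated at the spread of the 8 libraries. They recovered 25.5% of 98 genes changed by 1 on the log2 scale and 74% of 96 genes changed by 2. False calls were 5.88% of all calls. A gene that did not pass may therefore still differ. The simulation changed far fewer genes than were called in the data. It also drew each gene independently, without the sets into which the 8 libraries fell, so its shares may not hold for these data. DESeq2 1.42.0, limma 3.58.1 (voom), library totals, other filters, omission of single libraries, all 7 ERY-I libraries and a block were alternatives, and each set of libraries alone was an alternative chosen after seeing the data.

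Named genes were lineage landmarks, the 12 largest rises and 12 largest falls among called genes without overlap whose mean reached 20 CPM, and up to 4 called members of each list. Tmem14c, Piezo1, Nfe2, Ldb1, Cish, Jak2, Cdk4, Hist1h1a, Pcx, Slc16a1, Vdac1 and Ifit2 were chosen after their values were seen. Libraries at the same place in the order deviated together (correlations 0.511, 0.703, 0.615 and 0.552), but no label pairs them, and ERY-II replicate 1 correlated better, at 0.524, with ERY-I replicate 5. Total counts of 2533508 to 6650278 set the precision, and reads without molecular identifiers are not independent molecules.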

Additional observations from a re-analysis of the deposited data

Results flagged for a closer look

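In these groups of 4 libraries a single library stood apart when its gap to the nearest other was a large part of the group's range, which chance alone gives in about 1 group in 20. Of 324 such groups examined 19 stood out in this way, close to that share. The groups come from the same 8 libraries and are not independent. The total therefore does not show whether a given library is unusual. ERY-II replicate 4 was highest by such a gap for Hba-a1 (0.894 of the range), Hba-a2 (0.880), Bcl2l1 (0.914), Tcp11l2 (0.845), Rsad2 (0.879), Eif5 (0.931), Gpx1 (0.958), Pink1 (0.932) and Psme3 (0.887), and lowest for Ppa2 (0.880). The same library had the largest globin share and the smallest TMM factor of the 8, 0.42, and the part of these in the gaps was not tested. ERY-II replicate 2 was lowest for Atp5g1 (0.965) and highest for the neutrophil sum (0.988) and the mast cell, basophil and eosinophil sum (0.974). In ERY-I, replicate 4 was lowest for Bpgm (0.887) and Iscu (0.935), replicate 5 was highest for Ifit1 (0.895), the neutrophil sum (0.966) and the mast cell, basophil and eosinophil sum (0.856), and replicate 7 was highest for Hist1h1a (0.851).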

How the results depend on the processing

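The counts of calls moved most with the scale: scaled to library totals, 371 were higher and 5641 lower. On that scale the log2 fold changes of Tfrc (-0.05), Klf1 (-0.40), Gata1 (-0.58), Epor (-0.19), Jak2 (-0.46), Cdkn2c (-0.09), E2f4 (-0.55), Hist1h2ak (-0.10) and Xist (-0.40) changed sign, where the median shift of all genes is -1.22. In the second set of libraries alone, an alternative chosen after seeing the data, Ccnd2 reversed to -4.28. The globin difference was 44.89 percentage points of the library size after TMM scaling, and 18.82 to 24.37 with single libraries left out (exact p = 0.0571, the smallest that 3 against 4 libraries allow). With single libraries left out the difference of summed neutrophil markers was -347.4 to 552.8 CPM and that of mast cell markers -9.002 to 43.78, both below 0 only without ERY-II replicate 2. With TMM scaling the differences of the megakaryocyte sum (26.56, against -22.57 on library totals) and the stem and progenitor sum (5.82, against -30.07) changed sign. With single libraries left out 1558 to 1991 genes were higher and 1497 to 2056 lower, with the lowest counts without ERY-I replicate 4. The block by place in the order gave 2455 higher and 2645 lower, and of the 155 genes named it changed the call of Kit only. DESeq2 gave 2270 and 2195, limma-voom 1935 and 1874, and all 7 ERY-I libraries 2091 and 2588.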
